A study of Caenorhabditis elegans with 8 samples.

Results

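The *C. elegans* genome carries families of secreted and lysosomal proteases that are named by symbol, and 51 of these genes are described here out of 14334 genes expressed above the filter. They are every gene of the CPM-filtered table whose symbol starts with *asp-*, *cpr-*, *cpl-*, *cpz-* or *nas-* and a digit. The aspartyl proteases (13 *asp* genes) and the cysteine proteases (5 *cpr* genes, *cpl-1*, *cpz-1* and *cpz-2*) are kept together as 21 genes, apart from 30 astacins (*nas* genes). The count table held 64 symbols of this kind, and the 13 that did not pass the filter (more than 1 CPM, a count scaled to the size of its library, in 2 or more libraries) reached at most 7 counts in any library. RNA-seq had been done on whole L4 larvae, either wild-type (N2) or *nhr-49*(*nr2041*), a mutant backcrossed to N2 that lacks function of the nuclear hormone receptor NHR-49, both fed *E. coli* OP50. Worms of each genotype were left untreated or were exposed to the organic peroxide tert-butyl hydroperoxide (tBOOH, 7.5 mM) for 4 hr. Each of the 4 groups has 2 libraries, numbered replicates 1 and 3 in the labels, and the paper calls them biological replicates.

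Aspartyl proteases of the cathepsin D type and cysteine proteases of the cathepsin B, L and Z types digest proteins in acidic compartments. In the worm many of them are made by the intestine, where they break down bacterial food in the gut lumen and cargo in lysosomes. Astacins are zinc metalloproteases that are mostly secreted. They act on extracellular matrix and food proteins, and several are needed to shed the old cuticle at each molt or to keep the pharyngeal grinder in order. Some astacins carry other symbols, such as *hch-1* and *dpy-31*, and are outside the set.

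The libraries summed to 2157766 to 5852727 counts. The detection floor was set at 3 counts, or between 0.508 and 1.55 CPM depending on the library. Reads on *nhr-49* itself (WBGene00003639) came to 66.1 and 68.5 CPM in untreated wild-type worms and 21.2 and 36.1 CPM in untreated mutants, and to 108 and 110 against 27.7 and 32.7 CPM with tBOOH. Where the *nr2041* deletion lies in the gene was not analysed here. Replicates correlated less closely in the mutant (Pearson's r of log2(CPM + 1) across genes 0.909 untreated and 0.932 with tBOOH) than in wild-type worms (0.976 and 0.972). The 2 libraries of each mutant group also differed in germline markers, whose summed level was 3669 and 1346 CPM without tBOOH and 4695 and 1030 CPM with it. All but 1 of 11 intestinal markers had counts, and *elt-4* was at 0 in every library. Since whole worms were sequenced, fewer cells of a type and less RNA per cell cannot be told apart.

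The aspartyl and cysteine proteases made up 1.36% to 1.93% of all counts in a library and the 30 astacins 0.0377% to 0.0605%. Levels were compared between genes as CPM per kb of coding sequence, averaged over the 8 libraries. *asp-1*, a cathepsin D-like protease of the intestine, led with 3832 CPM per kb (2248 to 5677 over the libraries) and alone took 0.279% to 0.603% of the counts. It was followed by *asp-6*, another abundant aspartyl protease, at 2162 CPM per kb and by *cpl-1*, the cathepsin L that processes yolk proteins in embryos, at 1533 CPM per kb. *asp-3*, which takes part with *asp-4* in the necrotic death of neurons, came next at 1070 CPM per kb. The cathepsin Z gene *cpz-1* stood at 729 CPM per kb, and the cathepsin B-like genes *cpr-1*, *cpr-6*, *cpr-4* and *cpr-5* at 601, 583, 482 and 350 CPM per kb. The astacins were lower. Their median was 4.90 CPM per kb (n = 30 genes), against 206 for 12 aspartyl and 532 for 8 cysteine proteases. The highest astacins were *nas-11* at 46.4 CPM per kb, *nas-38*, a gene that acts in molting and in the sleep-like state that goes with it, at 33.4, and *nas-37*, which is needed to cast off the old cuticle, at 32.3. For none of the 49 pairs of neighbours in this order did the ranges over the libraries stay apart, so the order is only coarse. *asp-10* has no coding length here and was left out of it.

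Of the 51 genes, 37 had CPM above 1 in every library, namely 20 of 21 aspartyl and cysteine proteases and 17 of 30 astacins. Only 8 astacins had 20 or more counts in every library. *asp-16* was kept through its 2 libraries of tBOOH-treated mutants alone. Across the 4 comparisons of groups, 11 genes passed the test at least once, 7 of them aspartyl or cysteine proteases and 4 of them astacins. Over all 14334 genes 1319 did. Without *asp-16*, whose group of high values also carried it past the filter, 10 members remain, 6 of them aspartyl or cysteine proteases.

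**Figure D1:**
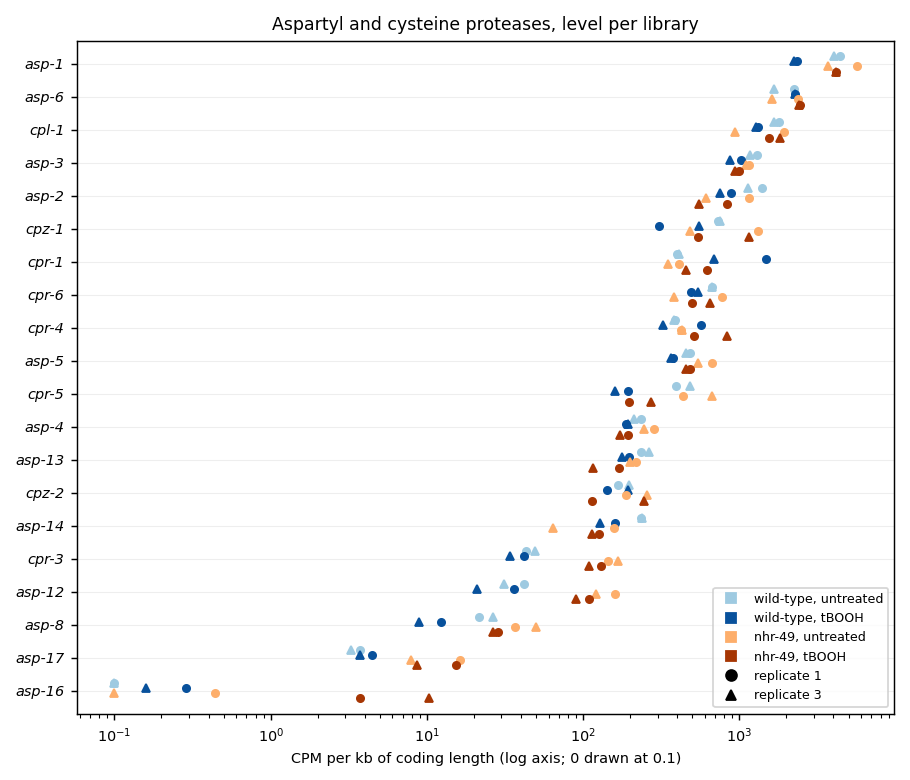
Level of the aspartyl and cysteine proteases in each library, in CPM per kb of coding sequence on a log axis. Circles are replicate 1, triangles replicate 3 and colours the 4 groups. *asp-10* has no coding length here and is not drawn. *asp-1* lies highest (2248 to 5677 CPM per kb) and *asp-16* lowest, at 10.4 CPM per kb in its highest library.

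**Figure D2:**
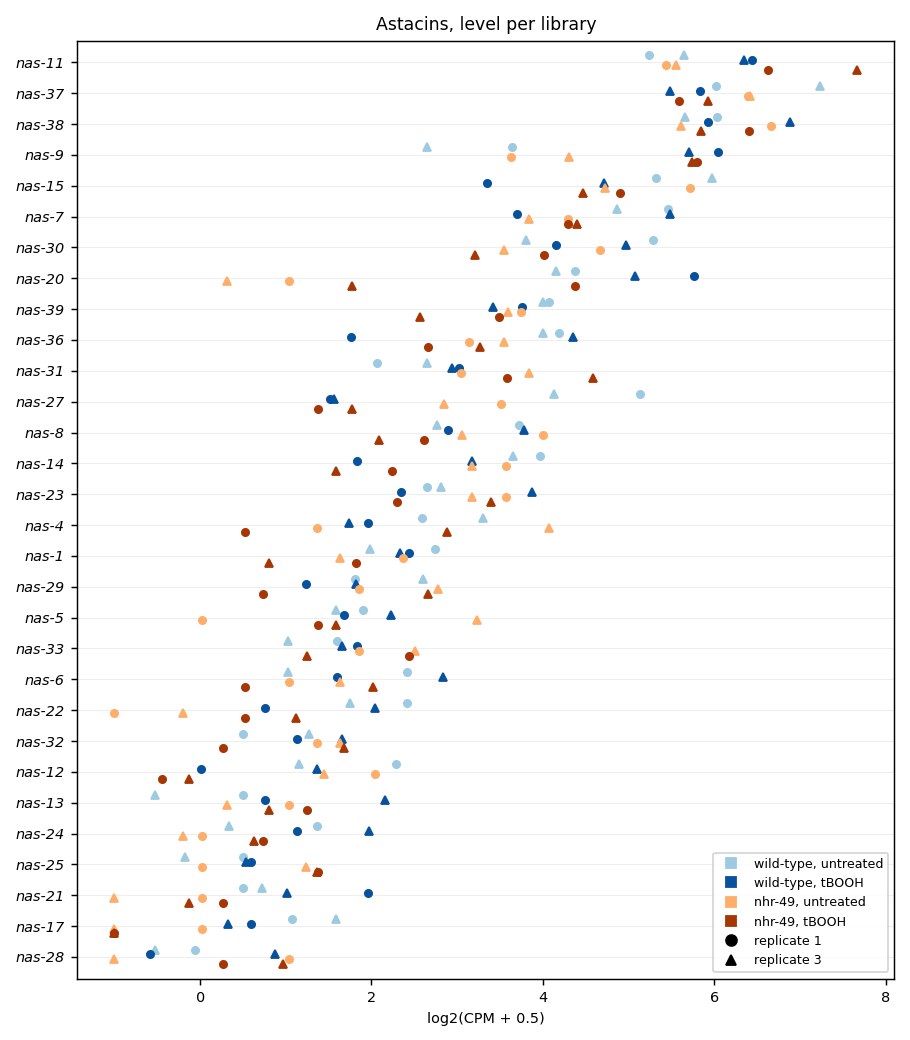
Level of the 30 astacins in each library as log2(CPM + 0.5), ordered by mean CPM, with circles for replicate 1, triangles for replicate 3 and colours for the 4 groups. *nas-11*, *nas-37* and *nas-38* lie at the top, and for *nas-9* the 4 tBOOH-treated libraries lie to the right of the 4 untreated ones.

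The first question was how the wild-type worms responded to tBOOH. Among the aspartyl and cysteine proteases, *asp-10* and *cpr-5* fell and *cpr-1* rose, so that 3 of 21 were called at an adjusted p under 0.05 in the edgeR exact test, where 5.34% of all genes were called. The aspartyl protease *asp-10* stood at 196 and 218 CPM in the untreated libraries and at 35.0 and 31.4 CPM with tBOOH. The treated libraries were far below the untreated ones, and the log2 fold change was -2.64 (DESeq2 SE 0.50, adjusted p = 1.25e-04). *cpr-5*, a cathepsin B-like gene, stood at 404 and 500.3 CPM untreated and at 199 and 165 CPM treated, again without overlap (log2 fold change -1.31, SE 0.37, adjusted p = 0.0276). *cpr-1*, a cathepsin B-like gene of the gut, stood at 394 and 406 CPM untreated and at 1468 and 676 CPM treated. The treated libraries were both higher but far apart from each other (log2 fold change 1.42, SE 0.41, adjusted p = 0.0417). Replicate 1 with tBOOH carried much of this difference, and without it the log2 fold change of *cpr-1* was 0.76 (adjusted p = 0.816). Without untreated replicate 1 or 3 its adjusted p was 0.512 or 0.557. The call of *cpr-5* was lost without any one of the 4 libraries (adjusted p = 0.150 and 0.5002 without untreated replicates 1 and 3, 0.319 and 0.399 without treated replicates 1 and 3). That of *asp-10* was lost only without treated replicate 3, of the 8 libraries left out in turn (0.0540).

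The remaining 18 aspartyl and cysteine proteases did not pass the test in wild-type worms, though most had lower values with tBOOH. In 14 of the 21 both treated libraries were below both untreated ones, and in 3 both were above, where 27.5% and 32.3% of all genes behaved so. Among the 3 is *asp-16*, which was at or under the floor in both wild-type groups. The log2 fold changes of the 21 genes had a median of -0.36, against 0.05 over all genes tested. *asp-1* went from 5225 and 4756 CPM to 2761 and 2670.4 CPM (log2 fold change -0.88, adjusted p = 0.226 in the exact test). Its adjusted p was 0.0428 in DESeq2 and 0.103 in the quasi-likelihood test. *asp-1* gave the largest part of the drop in the summed level of the 21 genes. That sum was 17558 and 15985 CPM without and 13628 and 12355 CPM with tBOOH. *asp-8*, an aspartyl protease of low level, had 24.8 and 30.8 CPM without and 14.2 and 10.2 CPM with tBOOH (log2 fold change -1.19, adjusted p = 0.0572). *asp-6* did not follow the others, at 2617 and 1944 CPM untreated and 2659.9 and 2660.9 CPM treated (log2 fold change 0.22, adjusted p = 0.880). *asp-3* and *asp-4* had log2 fold changes of -0.37 and -0.23, *cpl-1* of -0.41 and *cpz-1* of -0.79, and their adjusted p-values ranged from 0.564 to 0.843.

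Among the astacins *nas-9* rose and *nas-27* fell in wild-type worms, and the other 28 of 30 were not called (5.34% of all genes were called, 316 higher and 450 lower of 14334). *nas-9* stood at 11.96 and 5.75 CPM (52 and 30 counts) in the untreated libraries and at 65.6 and 51.9 CPM (388 and 274 counts) with tBOOH. Both treated libraries were several times above the untreated ones (log2 fold change 2.74, SE 0.47, adjusted p = 2.90e-06). *nas-27* moved the other way, from 34.5 and 17.1 CPM (150 and 89 counts) to 2.37 and 2.46 CPM (14 and 13 counts), with a log2 fold change of -3.40 (SE 0.63, adjusted p = 8.49e-06). The call of both genes held without each of the 8 libraries in turn. Without untreated replicate 1 the log2 fold change was 3.35 for *nas-9* and -2.81 for *nas-27*. Without treated replicate 3 the number of astacins called was 4, with *nas-15* and *nas-36* added. *nas-36*, a partner of *nas-37* in molting, had unlike treated libraries, at 2.88 and 19.9 CPM, against 17.7 and 15.5 CPM untreated. The untreated libraries of *nas-37* were unlike as well, at 64.4 and 151 CPM, with 56.5 and 44.1 CPM under tBOOH (log2 fold change -1.10, adjusted p = 0.168). The median log2 fold change of the 30 astacins was 0.18, and their summed level was 468 and 492 CPM without and 433 and 548 CPM with tBOOH.

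**Figure D3:**
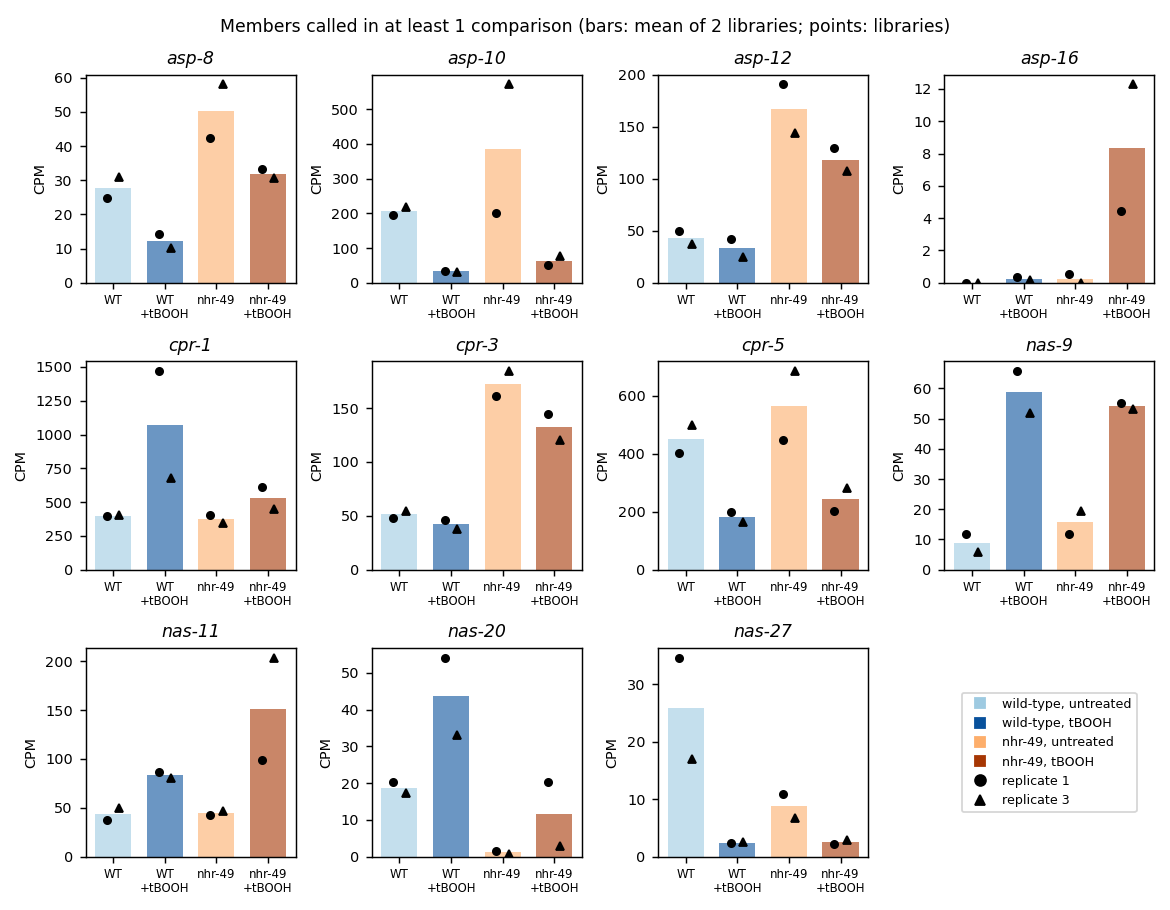
Level in CPM, on a linear axis from 0, of the 11 genes that passed the test in at least 1 of the 4 comparisons. Bars are the mean of 2 libraries, circles replicate 1 and triangles replicate 3. *asp-10* falls with tBOOH in both genotypes, *nas-9* rises in both, and *asp-12* and *cpr-3* are higher in both mutant groups than in either wild-type group.

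The same question was asked of the *nhr-49* mutants, in which 2 of 21 aspartyl and cysteine proteases were called with tBOOH, where 4.63% of all genes were (2.72% higher and 1.91% lower). *asp-10* fell again, from 200 and 571 CPM to 50.9 and 76.8 CPM (log2 fold change -2.60, SE 0.50, adjusted p = 1.54e-04). The untreated mutant libraries differed from each other, yet both were above both treated ones. Without untreated replicate 3, the higher of them, the log2 fold change was -1.65 (adjusted p = 0.00504), and the call held without each other library too. *asp-16*, an aspartyl protease that was nearly silent elsewhere, had 1 and 0 counts in the untreated mutants and 19 and 59 counts (4.44 and 12.3 CPM) with tBOOH. As a ratio of summed counts scaled by depth this is 39.6 (95% exact interval 6.91 to 1586, counting error only). The gene is given as a description, since it passed the filter through these treated libraries alone, and without it 1 of 21 was called. Wild-type worms had 0 and 0 counts of *asp-16* without and 2 and 1 with tBOOH, which is at or under the floor. Treated mutant replicate 3 held most of the counts.

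*cpr-5* lay just outside the threshold in the mutants, at 449 and 685 CPM without and 203 and 282 CPM with tBOOH (log2 fold change -1.23, SE 0.37, adjusted p = 0.0513). The treated libraries were below the untreated ones, as they were in wild-type worms, and without untreated replicate 1 the adjusted p was 0.00980, which made 3 genes called. *cpr-1* stood at 402 and 344 CPM without and 608 and 449 CPM with tBOOH (log2 fold change 0.50, adjusted p = 0.737). *asp-1* had 6745 and 4400.4 CPM without and 4919 and 4943 CPM with tBOOH, so that its groups overlapped (log2 fold change -0.18, adjusted p = 0.959). In 9 of the 21 genes both treated libraries were below both untreated ones, where 18.9% of all genes were, and the median log2 fold change was -0.23 against 0.04 over all genes. *cpr-4*, which encodes a secreted cathepsin B that carries a signal from irradiated to unexposed cells, had 426 and 431 CPM without and 514 and 835 CPM with tBOOH. *cpz-1* varied between the replicates, at 1205 and 446 CPM untreated and at 496 and 1060 CPM with tBOOH.

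Among the astacins *nas-9*, *nas-11* and *nas-20* rose in the mutants, 3 of 30, where 2.72% of all genes were called higher and 1.91% lower. *nas-9* went from 11.9 and 19.3 CPM to 55.1 and 53.1 CPM, which put the treated mutants at the level of the treated wild-type worms (log2 fold change 1.78, SE 0.48, adjusted p = 0.00693). *nas-11*, the most abundant astacin, went from 43.0 and 46.5 CPM to 98.5 and 203 CPM (log2 fold change 1.75, SE 0.43, adjusted p = 0.00383). In wild-type worms its values were 37.3 and 49.6 CPM without and 86.5 and 80.9 CPM with tBOOH, also without overlap (log2 fold change 0.94, adjusted p = 0.227). *nas-20* went from 3 and 2 counts to 87 and 14 counts (1.55 and 0.744 CPM to 20.3 and 2.91 CPM), a depth-scaled ratio of 10.3 (95% exact interval 4.26 to 32.3, counting error only, adjusted p = 0.0200).

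Each of these 3 calls was lost with at least 1 of the 8 libraries left out. For *nas-9* the log2 fold change stayed between 1.48 and 2.18 with any library left out. Without untreated replicate 1 the adjusted p of *nas-9* was 0.0752. That of *nas-11* was 0.0711 without untreated replicate 3 and 0.104 without treated replicate 3, where its log2 fold change was 1.14. For *nas-20* treated replicate 1 held most of the reads, and without it the log2 fold change was 1.498 (adjusted p = 0.486). Without treated replicate 3 the log2 fold change of *nas-20* was 4.16 (adjusted p = 4.01e-06). Its adjusted p was 0.0557 and 0.324 without untreated mutant replicates 1 and 3, and 0.0518 and 0.0513 without untreated wild-type replicates 1 and 3, which enter through the dispersions. *nas-27* was not called in the mutants, at 10.9 and 6.70 CPM without and 2.10 and 2.91 CPM with tBOOH (log2 fold change -1.77, adjusted p = 0.0929). Both treated libraries were above both untreated ones for 6 astacins and below them for 6, where 19.6% and 18.9% of all genes were so placed. The median log2 fold change of the astacins was -0.41, or -0.35 with genes at the floor set to their bounds.

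Whether the response differed between the genotypes was tested directly as a genotype-by-treatment interaction in the quasi-likelihood model of edgeR. None of the 51 genes passed (0 at an adjusted p under 0.05, and 0 at an unadjusted p under 0.05, where 3.65% of all genes lay). Over all 14334 genes 0 passed as well. At an unadjusted 0.05 the likelihood ratio test placed 1 member, *nas-22*, DESeq2 placed 0, and the quasi-likelihood test without a filter on low counts placed 4 (*asp-1*, *cpr-1*, *nas-20* and *nas-27*, lowest p 0.00801). The lowest unadjusted p-values belonged to *nas-27* (0.0555), whose log2 response was higher by 1.62 in the mutants, and to *asp-1* (0.0623), with a log2 difference of 0.70. The log2 response of *cpr-1* differed by -0.92 and that of *nas-20* by 2.14. For *asp-10* it differed by 0.04 and for *cpr-5* by 0.09. So *cpr-1*, *cpr-5* and *nas-27*, called in wild-type worms alone, and *nas-11* and *nas-20*, called in the mutants alone, were not shown to respond differently.

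The fitted responses could be set side by side for 48 of the 51 genes, since *asp-16*, *nas-17* and *nas-21* were at the floor in both groups of 1 genotype. The sign was the same in both genotypes for 17 of 20 aspartyl and cysteine proteases (14 lower and 3 higher with tBOOH) and for 20 of 28 astacins. Over all genes with such values it was the same for 9794 of 13840 (70.8%).

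**Figure D4:**
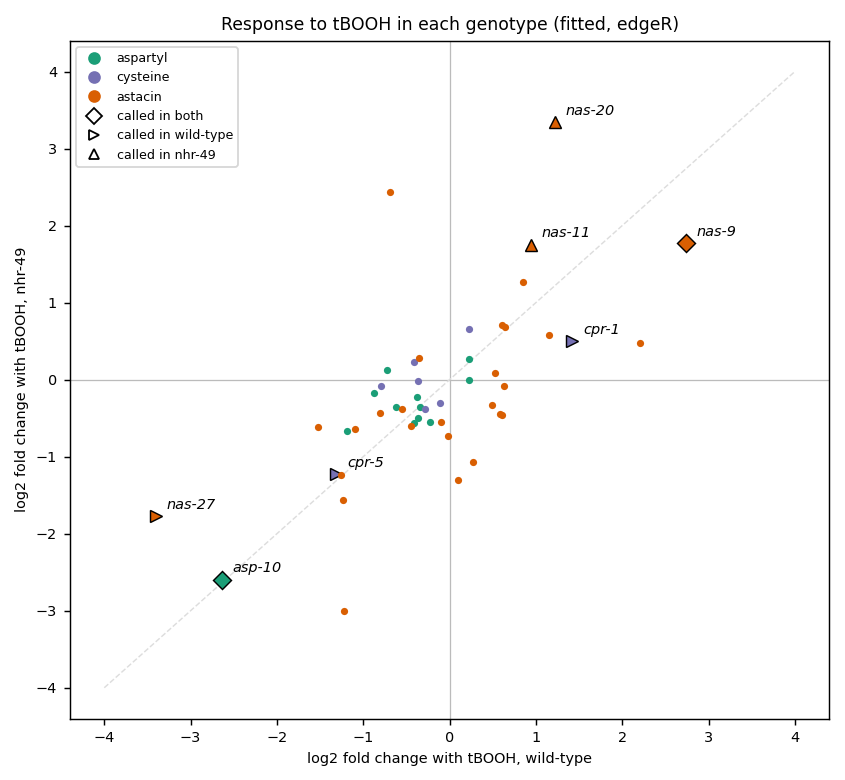
Fitted log2 fold change with tBOOH in wild-type worms (x axis) and in *nhr-49* worms (y axis), coloured by family, with the line of equal response dashed. The 48 genes drawn are those left after leaving out genes at the floor in both groups of a genotype. Some of the 48, such as *nas-20*, were at the floor in the untreated mutants. Outlined symbols mark called genes. *asp-10* and *nas-9*, called in both genotypes, lie at the lower left and the upper right, and most aspartyl and cysteine proteases lie between 0 and -1 on both axes.

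The next question was whether the genotypes differed without tBOOH. Of the 21 aspartyl and cysteine proteases, *asp-12* and *cpr-3* were higher in untreated mutants than in untreated wild-type worms, where 0.998% of all genes were called, 0.802% higher and 0.195% lower. *asp-12*, an aspartyl protease gene, had 49.7 and 36.98 CPM in wild-type worms and 191 and 144 CPM in mutants (log2 difference 1.95, SE 0.39, adjusted p = 6.53e-04). *cpr-3*, of the cathepsin B-like genes, had 47.8 and 54.8 CPM in wild-type worms and 161 and 184 CPM in mutants (log2 difference 1.75, SE 0.32, adjusted p = 1.82e-04). Both mutant libraries were more than 2 times above both wild-type libraries for each gene. Yet both calls were lost without either untreated wild-type library. Without replicates 1 and 3 the log2 difference of *asp-12* was 2.18 and 1.75 (adjusted p = 0.124 and 0.479) and that of *cpr-3* 1.66 and 1.85 (0.304 and 0.159), so that the differences stayed about as large. Without untreated mutant replicate 1 the number called was 4, with *asp-10* and *asp-14* added. *asp-17* also had higher values in the mutants, at 4.37 and 3.83 against 19.2 and 9.30 CPM, and did not pass the test (log2 difference 1.77, adjusted p = 0.180).

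One of 30 astacins, *nas-20*, was called between the untreated genotypes. It had 88 and 90 counts (20.2 and 17.2 CPM) in wild-type worms and 3 and 2 counts in the mutants. The depth-scaled ratio of wild-type to mutant counts was 17.2 (95% exact interval 7.23 to 53.6, counting error only), and the adjusted p was 0.00853. This call too was lost without untreated wild-type replicate 1 (adjusted p = 0.128) or 3 (0.102) and without untreated mutant replicate 3 (0.369). The adjacent *nas-22* had 21 and 15 counts in wild-type worms and 0 and 1 in the mutants, a ratio of 17.4 (interval 2.93 to 705) that did not pass the test (adjusted p = 0.153). *nas-21*, which lies between them, had 4 and 6 counts against 1 and 0. The mutant libraries lay below the wild-type libraries for 10 of 30 astacins and above them for 4. For the 21 aspartyl and cysteine proteases they lay below for 3 and above for 7. Of all genes 20.7% lay below and 18.3% above. Among the 10 astacins, *nas-17*, *nas-20*, *nas-21*, *nas-22* and *nas-24* were at the floor in the untreated mutants. The median log2 difference was 0.25 for the aspartyl and cysteine proteases (0.16 with genes at the floor set to their bounds) and -0.21 for the astacins, against -0.03 over all genes.

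With tBOOH, 4 of 21 aspartyl and cysteine proteases were higher in the mutants and 0 were lower, where 2.30% of all genes were called, 1.79% higher and 0.509% lower. *asp-12* had 42.5 and 24.8 CPM in treated wild-type worms and 129 and 107 CPM in treated mutants (log2 difference 1.81, SE 0.39, adjusted p = 0.00151). *cpr-3* had 46.4 and 37.9 CPM against 144 and 121 CPM (log2 difference 1.65, SE 0.32, adjusted p = 3.46e-04). Both genes thus lay higher in the mutants with and without tBOOH. *asp-8* had 14.2 and 10.2 CPM against 33.2 and 30.6 CPM (log2 difference 1.38, SE 0.41, adjusted p = 0.0329), and *asp-16* had 2 and 1 counts against 19 and 59. The ratio of the *asp-16* counts scaled by depth was 32.01 (95% exact interval 10.6 to 159, counting error only), given as a description for the same reason. Without *asp-16*, 3 of 21 were higher. The mutant libraries lay above the wild-type libraries for 11 of the 21 genes, where 20.4% of all genes did so. They lay below for 3, where 3147 of 14334 genes did so. Among the 11 is *asp-16*, which passed the filter through the treated mutants alone. *asp-1* is there too, at 2761 and 2670.4 against 4919 and 4943 CPM (log2 difference 0.86, adjusted p = 0.408).

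With the treated wild-type group cut to 1 library, most of these calls were lost while the differences stayed about as large. Without treated wild-type replicate 3 the log2 difference was 1.60 for *asp-12* (adjusted p = 0.177), 1.64 for *cpr-3* (0.103) and 1.29 for *asp-8* (0.540), and 0 were called. Without treated wild-type replicate 1 it was 1.81 for *cpr-3* (0.0690) and 1.64 for *asp-8* (0.419), and *asp-12* alone was called, at 2.25. Without treated mutant replicate 3 the adjusted p of *asp-8* was 0.0853, and *asp-12* and *cpr-3* were called. The call of *asp-8* was lost as well without untreated wild-type replicate 1 (0.112) or 3 (0.113).

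No astacin was called between the treated genotypes in the edgeR exact test (0 of 30, with 5 at an unadjusted p under 0.05), nor by DESeq2 or the quasi-likelihood test (0 each). Over all genes 2.30% were called and 9.72% were at an unadjusted p under 0.05. *nas-20* had 53.97 and 33.2 CPM in wild-type worms and 20.3 and 2.91 CPM in mutants, with all wild-type values above all mutant values (log2 difference -1.91, adjusted p = 0.278). *nas-11* had 86.5 and 80.9 CPM against 98.5 and 203 CPM (log2 difference 0.85, adjusted p = 0.492). *nas-31* had 7.61 and 7.20 CPM against 11.4 and 23.5 CPM (log2 difference 1.24, adjusted p = 0.381). Without treated mutant replicate 1, these 3 astacins were called. *nas-9* had overlapping values in the treated genotypes (log2 difference -0.12, adjusted p = 0.997).

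Where the genes lie was read from the WBcel235 annotation, which is a later build than the one used for alignment. Of the 50 genes matched to it, 15 aspartyl and cysteine proteases and 8 astacins lie on chromosome V. *asp-12* (WBGene00017678) lies between *asp-6* and *asp-5* with no other coding gene between them, and neither neighbour was called in any comparison. *asp-16* (WBGene00012682) lies between *asp-17* and *asp-15*, and *asp-15* had 0 counts in every library. *nas-20* (WBGene00003539), *nas-21* and *nas-22* are adjacent as well. Reads that fit more than 1 member of such a run may have been divided between them in the counting. The counts of *asp-12*, *asp-16*, *asp-17* and *nas-20* to *nas-22* are therefore uncertain. Of the 50 genes 14, among them 11 astacins, overlap an exon of another coding gene. *nas-11* (WBGene00003530, chromosome X) shares such a stretch with *smf-2* on the other strand, and *smf-2* had at most 3 counts in any library.

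Genes that work beside the proteases were described by fixed lists. Of 37 lysosomal genes tested, which encode lysosomal enzymes, membrane proteins and the proton pump that acidifies the compartment, 1 rose and 4 fell with tBOOH in wild-type worms, and 0 rose and 5 fell in the mutants. For this and the next lists, 3.14% of all genes were called lower in wild-type worms and 1.91% in the mutants. Called higher were 316 of 14334 genes in wild-type worms and 2.72% in the mutants. The median log2 fold changes of the lysosomal genes were -0.51 and -0.60. The intestinal list had 10 genes tested and medians of -0.71 and -0.76. In wild-type worms the brush border actin gene *act-5*, the phosphatase gene *pho-1* and *ifd-2* fell and *elt-7*, a GATA factor gene of the intestine, rose. In the mutants *act-5*, *pho-1*, the esterase gene *ges-1* and the peptide transporter gene *pept-1* fell. The summed level of this list was 5085 and 4439 CPM without and 2265 and 1567 CPM with tBOOH in wild-type worms, and 5264 and 5200.2 against 2919 and 1617 CPM in the mutants. Markers of body wall muscle and pharynx also had lower values with tBOOH, but those of some other tissues did not. In wild-type worms and mutants the medians were 0.56 and 0.35 for germline and oocytes. They were 0.003 and -0.01 for neurons, and -0.04 and 0.07 for sperm. All 6 body wall muscle genes had both treated libraries below both untreated ones in each genotype. Of all genes 27.5% in wild-type worms and 18.9% in the mutants were so placed. The muscle genes had medians of -0.58 and -0.58, and none passed the edgeR exact test. Their sum went from 25629 and 25147 to 17741 and 17015 CPM in wild-type worms. The pharyngeal list had medians of -0.30 and -1.06 (-0.90 in the mutants with genes at the floor set to their bounds), with 8 of 10 fitted values below 0 in each genotype. The part of any of these tissues in the values of the proteases was not tested.

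For the astacins that act in molting, 25 genes of molting and cuticle assembly were used. In wild-type worms 10 of them fell with tBOOH and 0 rose (median log2 fold change -1.35), where 3.14% of all genes were called lower. In the mutants *fbn-1* alone fell (median -0.34), where 1.91% of all genes were called lower. With tBOOH, *mlt-9*, *mlt-11*, *sqt-3* and *noah-2*, 4 of 25, were higher in the mutants than in wild-type worms. Between these treated groups 1.79% of all genes were called higher. The summed level of all 25 genes was 4618 and 10147 CPM in untreated and 1597 and 2331 CPM in treated wild-type worms. The same sum in the mutants was 7125 and 10277 CPM without and 2896 and 5931 CPM with tBOOH. The spread between the untreated wild-type libraries had the same order as that of *nas-37*, and its part in that gene's values was not tested. Of 10 epidermal markers 7 fell in wild-type worms and 1, *wrt-10*, in the mutants. The molting astacins *nas-36*, *nas-37* and *nas-38* were called in none of the 4 comparisons. *nas-38* had 64.9 and 50.01 CPM without and 60.4 and 117 CPM with tBOOH in wild-type worms, and 101 and 48.4 against 84.1 and 57.2 CPM in the mutants. *nas-39*, the relative of the procollagen processing proteases of the tolloid type, lay between 5.41 and 16.3 CPM in all libraries.

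Of 9 protease inhibitor genes tested, which encode cystatins, serpins and inhibitors of metalloproteases, 0 were called in any comparison by the edgeR exact test, the quasi-likelihood test or DESeq2. At an unadjusted p under 0.05 the exact test had 2 of them with tBOOH in the mutants, 1 between the treated genotypes and 0 in the other comparisons. Over all genes the share was 14.6% with tBOOH in the mutants and 9.72% between the treated genotypes. It was 15.9% with tBOOH in wild-type worms and 7.56% between the untreated genotypes. The inhibitor genes had median log2 fold changes with tBOOH of 0.26 in wild-type worms and 0.66 in the mutants. Of 7 calpain genes, which encode calcium-activated cysteine proteases outside the set, *clp-4* rose with tBOOH in both genotypes. Over all genes 316 of 14334 were called higher in wild-type worms and 2.72% in the mutants. The other calpain genes were not called. *nas-6* and *nas-7*, astacins of the pharynx, were not called either. *nas-7* had 43.7 and 28.5 CPM without and 12.5 and 44.1 CPM with tBOOH in wild-type worms, and 19.2 and 13.8 against 19.1 and 20.6 CPM in the mutants.

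**Figure D5:**
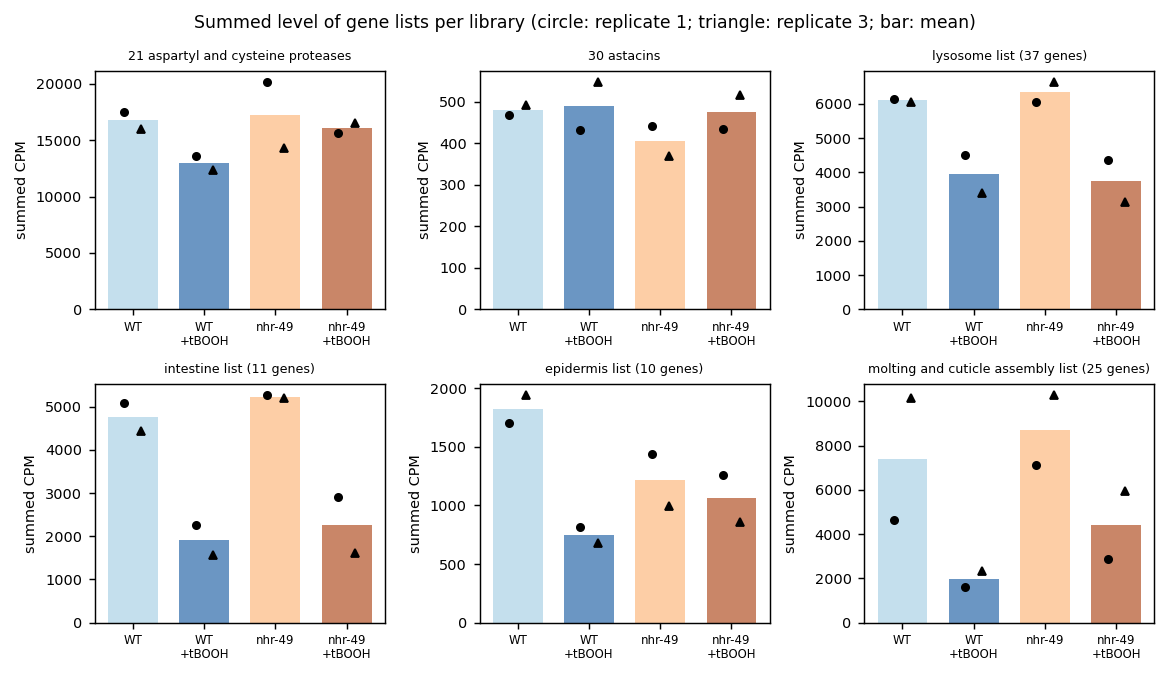
Summed level in CPM, on linear axes from 0, of the 21 aspartyl and cysteine proteases, the 30 astacins and 4 gene lists in each library, with bars for the mean of 2 libraries, circles for replicate 1 and triangles for replicate 3. The summed proteases lay at 17558 and 15985 CPM without and 13628 and 12355 CPM with tBOOH in wild-type worms, and overlapped in the mutants at 20178 and 14283 against 15653 and 16498 CPM, while the lysosomal and intestinal lists were lower with tBOOH in both genotypes.

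The spread between replicates was counted in each group. Among genes with at least 20 counts in a library of the group, 0 of 20 aspartyl and cysteine proteases differed more than 2-fold between the untreated wild-type libraries, 1 of 20 between the treated wild-type libraries, 6 of 20 between the untreated mutants and 3 of 21 between the treated mutants. For the astacins these numbers were 3 of 20, 7 of 20, 4 of 16 and 7 of 16. Over all genes 6.91%, 8.86%, 24.4% and 23.9% differed by that much.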

How the data were processed

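RNA was sequenced from 8 samples of whole L4 worms, 2 for each of 4 groups. The authors depleted ribosomal RNA, aligned reads to ce10 with STAR and deposited whole-number counts per gene symbol. The authors also deposited signal values, which are CPM (the counts over TMM-scaled library totals) of the 14334 genes, of 42048, that exceeded 1 CPM in 2 or more libraries. The counting program, the annotation and the use of strand are not given in the sources used here. CPM recomputed from the counts differed from the deposited signal by at most 4.5e-06.

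The analysis used edgeR 4.0.16 under R 4.3.3. Groups were compared by its exact test with TMM factors and tagwise dispersions from all 8 libraries (common dispersion 0.131), as the study's methods name that test. P-values were adjusted over 14334 genes (Benjamini-Hochberg) and called under 0.05. With 2 libraries per group they rest on a spread pooled over all 8 libraries, not on that within the groups compared. The common dispersion was 0.0528 from the wild-type libraries alone and 0.215 from the mutant libraries alone. Standard errors are those of DESeq2 1.42.0. Interactions were tested by quasi-likelihood. The exact test and the interaction test were tested on simulated data. Depth-scaled ratios carry exact 95% intervals, which cover counting error only.

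Genes named with values are those called in any comparison, the 3 with the largest change per comparison and family whose groups do not overlap (20 or more counts in both libraries on the higher side), the most abundant of each prefix, and genes of known role. Others were named after their values were seen. The members and lists were chosen with earlier results of these data known. Alternatives were DESeq2, the likelihood ratio and quasi-likelihood tests, the latter also with a replicate block, dispersions of only the 4 libraries compared, RLE factors, thinning to 2157766 counts, other filters (none, or 10 counts in 2 libraries), a prior count of 2, and each library left out in turn. Identifiers, chromosomes and coding lengths are those of WBcel235, in which 50 of 51 genes were found. *asp-10* was not, and is given by symbol. No sequences or coordinates are given, since the builds differ.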

Additional observations from a re-analysis of the deposited data

How the results depend on the processing

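The alternatives were followed for 28 log2 fold changes of 17 genes, those called or largest in a comparison. None changed sign, and 428 values kept their side of the threshold, 65 lost significance and 11 gained it. The other named genes were not followed. *asp-16*, given as a description only, is among the 17 genes and is in the counts below where it was called. With tBOOH in wild-type worms the 3 aspartyl and cysteine proteases called became 1 in the quasi-likelihood test, 5 in DESeq2 and 6 with dispersions from the 4 libraries compared, and the 2 astacins became 6 with those dispersions. In the mutants 2 became 1 in the quasi-likelihood test and 1 after thinning, with *asp-16* the gene lost in both. The 3 astacins became 0 in the quasi-likelihood test and 0 with dispersions from the 4 libraries compared. Between the untreated genotypes the quasi-likelihood test called 0 and 0 in place of 2 and 1. Between the treated genotypes it called 1 in place of 4, and thinning left 2. *asp-16* is among the 4 and was lost in both. The cause of these differences was not tested. With a library left out the counts ranged from 1 to 4 and from 2 to 4 with tBOOH in wild-type worms (aspartyl and cysteine proteases, then astacins), from 1 to 3 and from 1 to 3 in the mutants, from 0 to 4 and from 0 to 1 between untreated and from 0 to 4 and from 0 to 3 between treated genotypes. The lone library of a group was then assumed to vary like the others. The interaction count was 0 throughout.

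Samples of the same replicate number deviated together with r from 0.053 to 0.353 over the 4 comparisons, the labels do not say that a number marks a shared batch, and there are only 2 pairs, so the numbers were not taken to pair the samples. A replicate block was added to the quasi-likelihood test, and is set here against that test without it. For the aspartyl and cysteine proteases the count went from 1 to 3 with tBOOH in wild-type worms, from 1 to 2 in the mutants, from 0 to 2 between untreated and from 1 to 2 between treated genotypes. For the astacins it went from 0 to 1 in the mutants and stayed at 2, 0 and 0 elsewhere. With the block *cpr-5* passed in the mutants (adjusted p = 0.0480), and *asp-16*, given as a description only, did not. A floor of 3 counts is 1.55 CPM in the smallest library, which limits genes as low as many astacins.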
